A study of Citrus sinensis with 6 samples.

Results

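On the citrus array, 64 of 30171 citrus probe sets fell at least 4-fold in signal when self-pruning began and were less than 4-fold below it 7 days later. Most had regained part or all of the fall by then, but 8 had regained less than 25% of it, down to 1.02%. The 64 probe sets carry 61 transcript cluster numbers. A probe set was included when its stage mean, the mean log2 signal of 2 arrays, was at least 2 log2 units lower at the start of self-pruning than 3 days before, and when its mean 7 days after was more than -2 and less than 1 log2 unit away from the first stage. The changes between stages chose these probe sets, so they are given as a description and no test is run on them. Of 109 citrus probe sets that fell by this bound, the other 40 stayed at or under -2 and 5 rose to 1 or more above the first stage.

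Spring shoots of sweet orange (Citrus sinensis Osbeck, cultivar Cara Cara Navel Orange), grown under natural conditions and untreated, were sampled 3 days before self-pruning (stage 1), at its beginning (stage 2) and 7 days after it (stage 3). RNA from shoot tips that held the abscission zone, a tissue that the labels call shoot meristems, was read on the Affymetrix Citrus Genome GeneChip, using 2 arrays for each stage that the titles call biological replicates. The methods describe several groups of trees sampled for replicate analysis, more groups than there are arrays of a stage. Which trees each array came from is not given, so that how far the spread between arrays reflects trees is unknown. All signals are log2 values normalized by robust multi-array average (RMA), and a difference of 1 means a 2-fold change. Each stage is a mixture of cell types, and fewer cells of a type cannot be told apart from less RNA per cell.

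In self-pruning, the tip of a citrus shoot yellows and drops at an abscission zone, a layer of small cells whose walls loosen so that the organ separates. Plants commonly make antimicrobial proteins, such as chitinases and thaumatin-like proteins, together with enzymes that loosen walls, where an organ is shed and a surface is exposed. NAC and MYB proteins are plant transcription factor families with roles in defence, senescence and wall formation.

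The arrays of a stage correlated at 0.999 over all citrus probe sets, which are not independent replicates, and array medians were 7.30 to 7.39. For actin, the log2 difference between the 3′ and the 5′ end of the transcript was 1.87 and 1.94 on the arrays of stage 1, 1.89 and 1.93 on those of stage 2, and 1.62 and 1.66 on those of stage 3. The arrays of stage 3 thus stood apart in this sign of RNA quality, which moved together with the return of the 64 probe sets, and its part in that return was not tested. Of 12 probe sets with names of shoot meristem regulators, 8 were above the highest reporter control (5.48) on all 6 arrays, with medians of 7.98, 7.95 and 7.83 at the 3 stages. Of 25 probe sets with names of photosynthesis proteins, 17 were higher and 1 lower at stage 2 than at stage 1, and 3 were higher and 14 lower at stage 3 (limma, adjusted p under 0.05). Their median signals were 8.02, 8.33 and 7.79. Names of green tissue thus moved with the stages, and their part in the changes was not tested.

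The median of the 64 falls at stage 2 was -2.41, with a range from -4.78 to -2.01, while the median over all citrus probe sets was 0.01. At stage 3 the median difference from stage 1 was -0.98, with a range from -1.9989 to 0.99, against -0.04 over all citrus probe sets. Expressed as a share of the fall on the log2 scale, the median regained was 60.9%, and single probe sets regained between 1.02% and 138%. At stage 3, 31 probe sets were still 1 log2 unit or more below stage 1, 23 were between -1 and 0, and 10 were at or above stage 1. Over the array, 21.5% of citrus probe sets were called lower and 20.2% higher at stage 2 than at stage 1 (limma, Benjamini-Hochberg adjusted p under 0.05), a difference that the rule itself used. This balance depends on the scaling, since 6493 lower and 6080 higher calls became 4626 and 7145 after each array was centred on its median. Both stage 3 arrays read above both stage 2 arrays in 61 of the 64, and 36.1% of all citrus probe sets met that condition. Both stage 3 arrays read below both stage 1 arrays in 54 and above both in 9, against 44.3% and 37.6% of all. The rule leaves room for both orders, so that these counts describe the probe sets and are no evidence on them.

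**Figure D1:**
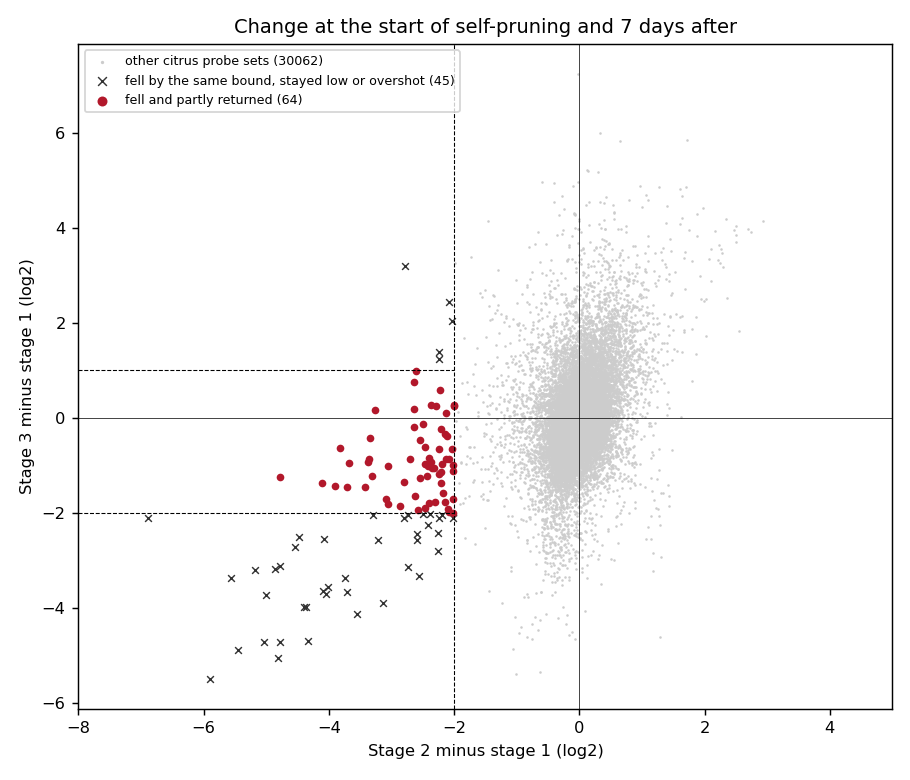
Change from stage 1 to stage 2 (x axis, log2) against change from stage 1 to stage 3 (y axis, log2) for each citrus probe set, as differences of stage means over 2 arrays. Red points are the 64 probe sets, black crosses the 45 others that fell by the same bound, grey points all others, and dashed lines the bounds of the rule; the red points fill the band between -2 and 1 on the y axis and thin out below -3 on the x axis.

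The replicates were close. The arrays of a stage differed by a median of 0.03 log2 units at stage 1, 0.08 at stage 2 and 0.05 at stage 3 over the 64, and by at most 0.43. Over all citrus probe sets these medians were 0.05, 0.06 and 0.06. Standard errors (SE) below come from limma over all 6 arrays and apply alike to each difference of a probe set.

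The bounds divided a continuous range. The probe set nearest inside the bound on the fall, Cit.17187.1.S1_at (unknown protein), changed by -2.01, and the nearest outside, Cit.28253.1.S1_at (CYP71A10, a cytochrome P450), by -1.99. At the lower bound on stage 3, Cit.1200.1.S1_at (thaumatin-like) was inside at -1.9989 and Cit.3171.1.S1_x_at (named for nitrate) outside at -2.0147. At the upper bound, Cit.13667.1.S1_s_at (wound-induced) was inside at 0.99 and Cit.11918.1.S1_x_at outside at 1.25. Within 0.1 log2 units of the bound on the fall lay 9 of the 64 and, on the other side, 7 further probe sets.

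Many falls ended at signals as low as those of control probe sets. The 23 random-sequence controls had a median of 7.90, and 49 of the 64 read below it at stage 2, while 19 did so at stage 1. The array medians of 7.30 to 7.39 lie below 7.90 too, so that most citrus probe sets read below these controls at each stage. Of the 64, 24 read at or below the highest of 60 reporter controls at stage 2, none (0) at stage 1 and 3 at stage 3. How far a signal near these controls reflects transcript was not tested, nor was whether the size of such a fall is affected.

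By their names, the probe sets fell into 7 groups, which were drawn up after the values had been seen. They hold 15 probe sets of defence and wound response, 6 of transcription factors, 7 of cell wall and apoplast proteins, 9 of amino acid and sugar metabolism, 9 of hormone, receptor and hydrolase genes, 11 with another or uninformative name and 7 with no protein match. The groups differed in how much returned. The median share regained was 105% for cell wall and apoplast proteins, 74.3% for other names, 70.3% for transcription factors, 60.8% for defence, 58.7% without a match, 47.0% for amino acid and sugar metabolism and 37.9% for hormone, receptor and hydrolase genes. Each group had a wide range except for the transcription factors, where it was 57.5% to 89.4%. No test is given for these differences, because the rule and the groups both rest on these values. Some probe sets could be placed in another group, and whether the order of the groups would then hold was not tested.

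**Figure D2:**
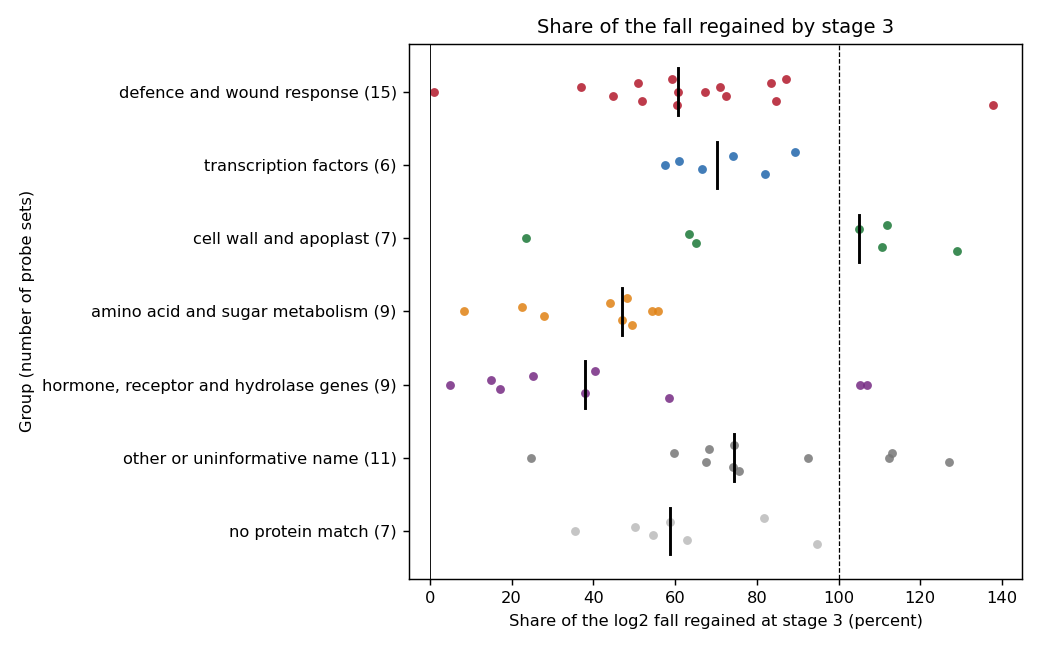
Share of the log2 fall regained at stage 3 (x axis, percent) for each of the 64 probe sets, in rows by group; black bars are group medians and the dashed line marks a full return to stage 1. Cell wall and apoplast probe sets lie highest, with a median of 105%, and hormone, receptor and hydrolase genes lowest, with 37.9%.

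Transcription factors had the deepest falls of any group, with a median of -3.39. A NAC domain probe set, Cit.1497.1.S1_s_at, read 10.74 and 10.79 at stage 1, 6.57 and 6.74 at stage 2, and 9.39 and 9.39 at stage 3. The stages did not overlap, and stage 3 stood between the others. Its fall of -4.12 ± 0.06 (SE, n = 2 arrays per stage) equals a 17.3-fold lower signal, of which 66.5% was regained. The study also ran real-time PCR on this transcript, but those measurements are not used here and lend no support to the array values. The primers are the only sequences of the 64 transcripts in the sources used here, and they are shown because they define the stretch of the NAC transcript that was amplified.
Cit.1497 sense primer: ccagggtttaggtttcac
Cit.1497 antisense primer: ttcgggtactttcggtct
Both primers have 18 bases, written 5′ to 3′, and 50% G and C.

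A second NAC probe set with a different protein match, Cit.1496.1.S1_s_at, read 9.86 and 9.83, then 6.47 and 6.39, then 8.40 and 8.38 at stages 1 to 3. It followed the same order of stages, with a fall of -3.42 ± 0.04 and a remaining difference of -1.45. Cit.5970.1.S1_at, named for NAM, the petunia NO APICAL MERISTEM protein that gave NAC its first letter, read 9.74 and 9.74, then 6.34 and 6.42, then 8.84 and 8.91. It regained 74.2% of a fall of -3.36 ± 0.04, more than either of the other NAC probe sets. Cit.3086.1.S1_at, with a MYB DNA-binding domain, read 9.59 and 9.61, then 5.79 and 5.99, then 8.11 and 8.19. Its signal was 13.1-fold lower at stage 2 and still 2.73-fold lower at stage 3. The remaining regulators fell less and came back closer to stage 1. Cit.6376.1.S1_at, whose closest named relative is MYB21, a regulator of stamen and petal growth in Arabidopsis, read 8.15 and 8.27, then 6.04 and 5.96, then 7.99 and 7.97. Cit.7103.1.S1_at, a homeodomain-leucine zipper protein like HAT5, read 7.89 and 7.87, then 5.77 and 5.78, then 7.42 and 7.58. They regained 89.4% and 82.0%, and both stage 3 arrays of each stayed below both stage 1 arrays.

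Other probe sets with NAC or MYB names moved both ways. Of 42 others named for NAC, 9 were lower and 13 higher at stage 2, and 4 lower and 26 higher at stage 3 than at stage 1. Over all citrus probe sets, 35.9% were called lower and 29.9% higher at stage 3 than at stage 1. Without replicate 1 of stage 2, 6 of all 44 NAC names, the 2 chosen ones included, were called lower at stage 2, against 11 with all arrays. Of 75 others named for MYB, 18 were lower and 20 higher at stage 2, and 33 were lower and 24 higher at stage 3. Of 47 others with homeodomain names, 8 were lower and 24 higher at stage 2, and 24 were lower and 14 higher at stage 3. The falls of the 6 regulators were thus not shared by most probe sets in these lists. The lists rest on shortened array names and miss some family members, such as the chosen Cit.1497.1.S1_s_at and Cit.3086.1.S1_at. Also missed were probe sets annotated as NAC4, which changed by -4.78 and -4.54 at stage 2 and stayed low. Within the lists, a NAC probe set changed by -2.80 and 2 homeobox-leucine zipper probe sets by -4.04 and -2.25. These stayed low too.

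**Figure D3:**
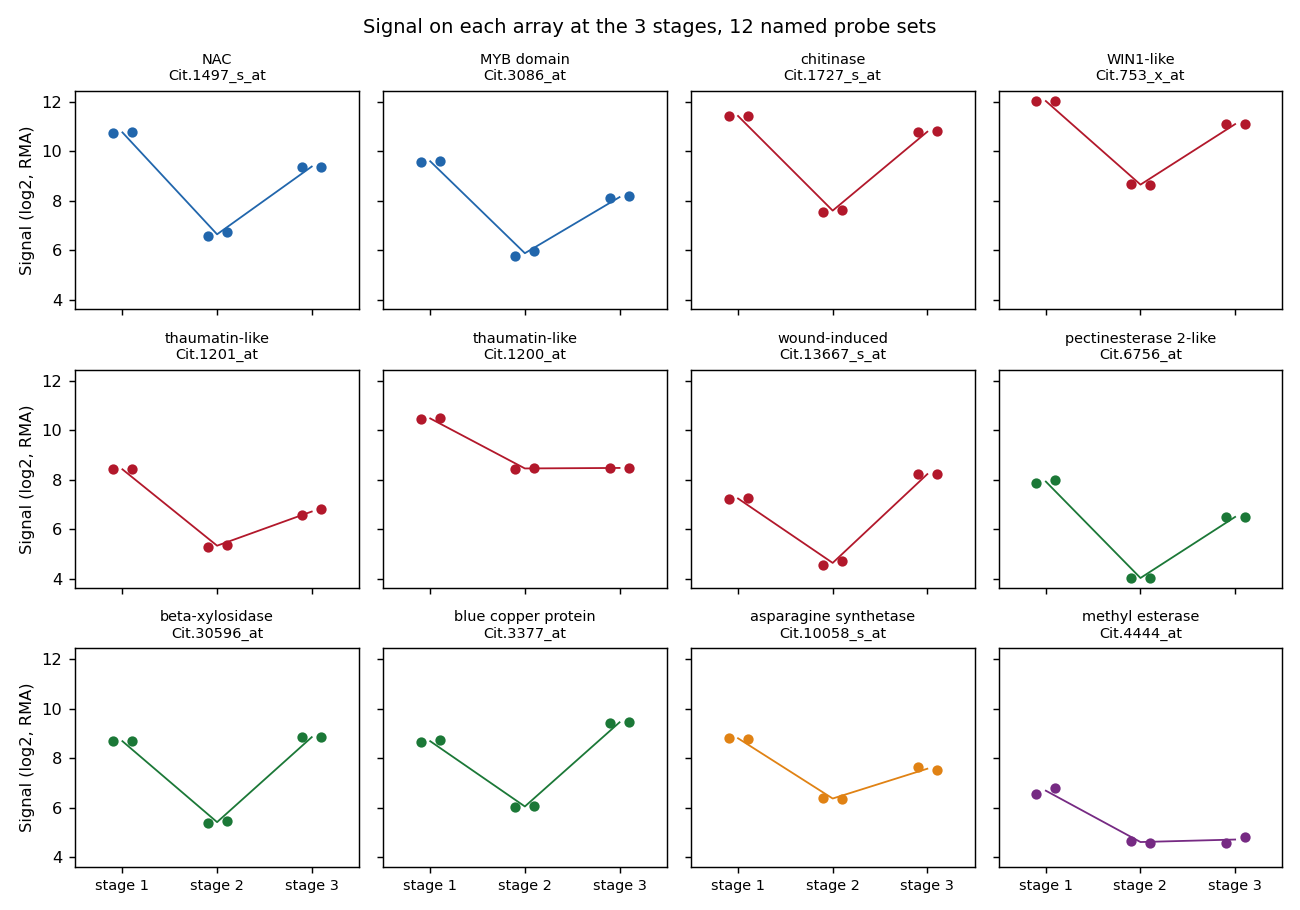
Log2 RMA signal (y axis) on each of the 6 arrays for 12 of the 64 probe sets, by stage (x axis); points are single arrays and lines join stage means. The NAC probe set Cit.1497.1.S1_s_at drops by 4.12 and regains 66.5%, the wound-induced Cit.13667.1.S1_s_at ends 0.99 above stage 1, and the thaumatin-like Cit.1200.1.S1_at and the methyl esterase Cit.4444.1.S1_at stay near their stage 2 signal.

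Defence and wound proteins formed the largest named group, and 14 of its 15 probe sets stayed below stage 1 on both stage 3 arrays. The chitinases, enzymes that cut the chitin of fungal walls, included the deepest fall of the group. Cit.1727.1.S1_s_at read 11.44 and 11.43 at stage 1, 7.57 and 7.65 at stage 2, and 10.78 and 10.81 at stage 3. Its signal was 14.1-fold lower at stage 2 and 1.55-fold lower at stage 3. The name of this probe set is in doubt. Its identifier has no row in the table that gives the names, and the chitinase name comes from a row with the identifier Cit.6756.1.S1_s_at, the cluster number of the pectinesterase described below, which has the same 3 stage means to within 5e-05. Cit.18677.1.S1_s_at, chitinase CHI1, read 11.36 and 11.38, then 8.0002 and 8.04, then 10.93 and 10.94. Cit.10594.1.S1_at read 7.78 and 7.86, then 5.74 and 5.64, then 6.89 and 7.01. These 3 probe sets share 1 best protein match and so may report related or the same transcripts. They regained 83.4%, 87.2% and 59.2% of falls of -3.82 ± 0.04, -3.35 ± 0.03 and -2.13 ± 0.06.

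Thaumatin-like proteins, the pathogenesis-related family 5 with antifungal members, held the smallest share regained of the group. Cit.1201.1.S1_at read 8.42 and 8.41, then 5.29 and 5.38, then 6.59 and 6.83 at stages 1 to 3. It stayed 3.26-fold below stage 1. Cit.1200.1.S1_at read 10.45 and 10.50, then 8.43 and 8.47, then 8.47 and 8.48. Its stage 2 and stage 3 arrays overlapped, with 1.02% of the fall regained, the smallest share of the 64.

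Probe sets like WIN1, the wound-induced potato protein of the pathogenesis-related family 4, kept close to each other. Cit.753.1.S1_x_at read 12.04 and 12.03, then 8.68 and 8.64, then 11.10 and 11.11. Cit.580.1.S1_x_at, with the same best match, read 9.32 and 9.42, then 6.27 and 6.36, then 8.35 and 8.39. Falls of -3.37 ± 0.03 and -3.06 ± 0.05 were regained by 72.4% and 67.2%. Both identifiers end in _x_at, which marks probes that may also bind other sequences, so that the readings may not be separate.

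Snakin-2, a small antimicrobial peptide known from potato, was read by both probe sets of cluster Cit.3665. Cit.3665.1.S1_at read 8.16 and 8.13, then 5.31 and 5.39, then 6.84 and 6.76. Cit.3665.1.S1_s_at read 7.47 and 7.67, then 4.79 and 5.11, then 5.82 and 6.02. The order of the stages was the same, and the shares regained were 52.0% and 37.0%. Germin-like proteins, wall proteins some of which make hydrogen peroxide, were present as Cit.18912.1.S1_x_at and Cit.8649.1.S1_x_at, with falls of -2.46 ± 0.07 and -2.24 ± 0.09 and with -0.96 and -0.65 remaining at stage 3.

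The probe sets nearest to carboxylesterase 6, one of them named on the array for HSR, a hypersensitivity-related esterase of tobacco, fell by similar amounts. Cit.9301.1.S1_s_at changed by -2.38 ± 0.04 at stage 2 and -0.94 at stage 3, and Cit.9300.1.S1_s_at by -2.15 ± 0.03 and -0.33. Peroxidase 4-like Cit.13606.1.S1_at, an enzyme class that oxidizes phenols in the wall, changed by -2.02 ± 0.04 and -0.99. The wound-induced probe set Cit.13667.1.S1_s_at was the exception in the group. It read 7.21 and 7.26, then 4.54 and 4.73, then 8.22 and 8.22, so that both stage 3 arrays lay above both stage 1 arrays. It had the highest share regained of the 64, 138%, after a fall of -2.60 ± 0.07.

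Name lists of the whole array put these falls in context. Among 84 probe sets named as pathogenesis-related, the 4 chosen ones fell, while of the 80 others 20 were lower and 20 higher at stage 2. At stage 3, 25 of these 80 were lower and 30 higher than at stage 1. A narrower list of 37, by beginnings of pathogenesis-related and thaumatin names, held 33 others, of which 14 were lower and 5 higher at stage 2. At stage 3, 14 of these 33 were lower and 10 higher. Of 16 other probe sets named for chitinase, 8 were lower and 2 higher at stage 2, and 11 were lower and 2 higher at stage 3. These 16 include 2 that fell by the bound and stayed low, and their 2 higher calls were lost without replicate 2 of stage 1 or replicate 1 of stage 2 (0 higher). Of 21 other peroxidases, 5 were lower and 5 higher at stage 2, and 2 were lower and 11 higher at stage 3. Of 5 others with HSR203 names, 1 was lower and 0 higher at stage 2, and 0 were lower and 4 higher at stage 3. Of 14 other germins, 3 were lower and 3 higher at stage 2, and 1 was lower and 7 higher at stage 3. All 16 germins together gave 5 lower calls at stage 2 with all arrays. Without either replicate of stage 1, or without replicate 1 of stage 2, they gave 2 to 3. Beside the 21.5% of the array, the share of other probe sets that were lower at stage 2 was higher for the chitinases and for the narrower list of pathogenesis-related and thaumatin names, both of which include probe sets that stayed low.

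The cell wall and apoplast group returned most fully, and 4 of its 7 probe sets ended above stage 1 on both stage 3 arrays. This rank depends on which probe sets were put in the group. A UDP-galactose epimerase, which makes a precursor of wall polymers, was counted here. Germin-like and peroxidase probe sets, which also act in the wall, were counted with defence and regained 60.8%, 70.9% and 50.9%. Beta-xylosidase Cit.30596.1.S1_at, an enzyme that releases xylose from hemicellulose, read 8.69 and 8.70, then 5.38 and 5.47, then 8.84 and 8.87. Its signal was 9.64-fold lower at stage 2 and 0.16 log2 units above stage 1 at stage 3. Blue copper protein Cit.3377.1.S1_at, a small copper-binding protein of the apoplast, read 8.66 and 8.73, then 6.02 and 6.09, then 9.44 and 9.47. It ended 0.76 log2 units above stage 1 after a fall of -2.64 ± 0.04. Beta-galactosidase Cit.11079.1.S1_at, which trims galactose from wall polymers, read 11.37 and 11.36, then 9.06 and 9.07, then 11.61 and 11.60. UDP-galactose epimerase Cit.30402.1.S1_at, which makes the UDP-galactose used for wall polymers, read 9.56 and 9.57, then 7.24 and 7.14, then 9.84 and 9.85. Both ended slightly above stage 1, by 0.24 and 0.28.

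The other 3 of the group stayed below stage 1. Pectinesterase 2-like Cit.6756.1.S1_at, an enzyme that removes methyl groups from pectin, read 7.87 and 7.97, then 4.02 and 4.04, then 6.49 and 6.497. Its 14.9-fold lower signal at stage 2 was below the highest reporter control, and 63.4% of the fall was regained. Beta-D-xylosidase 1-like Cit.28480.1.S1_x_at read 6.40 and 6.37, then 3.90 and 3.93, then 4.37 and 4.62. It regained 23.5%, in contrast to the 105% of the beta-xylosidase with another protein match. Its stage 2 signal was below the median of the reporter controls (4.12). Cit.28480.1.S1_s_at, of the same cluster, read 9.78 and 9.85 at stage 1 and changed by -4.86 ± 0.04 and -3.18, so that it stayed low. Cit.1928.1.S1_s_at, like EP1, a secreted epidermal glycoprotein of carrot, changed by -2.40 ± 0.05 and -0.84. Of 30 other probe sets with pectinesterase or pectin names, 5 were lower and 11 higher at stage 2, and 2 were lower and 17 higher at stage 3. Of 20 other beta-galactosidases, 4 were lower and 3 higher at stage 2, and 3 were lower and 8 higher at stage 3.

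Amino acid and sugar metabolism held 9 probe sets, and 8 of them were still 1 log2 unit or more below stage 1 at stage 3. Asparagine synthetase, which moves nitrogen onto aspartate to make the transport amino acid asparagine, was read by 3 of them. Cit.10058.1.S1_s_at read 8.83 and 8.79, then 6.41 and 6.35, then 7.63 and 7.53. Cit.10060.1.S1_s_at read 12.18 and 12.16, then 9.996 and 9.98, then 11.22 and 11.20. Cit.10060.1.S1_at, of the same cluster, read 9.49 and 9.57, then 7.43 and 7.59, then 8.34 and 8.46. All 3 kept stage 3 between the other stages, with 44.2% to 55.9% regained.

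Several enzymes of amino acid breakdown belonged to the same group. Branched-chain aminotransferase Cit.31144.1.S1_at changed by -2.25 ± 0.06 at stage 2 and -1.19 at stage 3. Tyrosine aminotransferase Cit.14020.1.S1_at changed by -2.21 ± 0.05 and -1.14. Methionine gamma-lyase-like Cit.1620.1.S1_s_at, which splits methionine, changed by -2.18 ± 0.04 and -1.57. The chosen aminotransferase probe sets thus regained 47.0% and 48.4% and the lyase 28.0%. Another probe set, with the homologue name of the branched-chain aminotransferase, changed by -4.34 at stage 2 and -4.69 at stage 3. It stayed low and showed no return. A pyridoxal phosphate-dependent transferase, Cit.372.1.S1_s_at, regained 22.6%. Glyoxalase I family protein Cit.15827.1.S1_at, of a family that detoxifies methylglyoxal, read 8.26 and 8.30, then 6.03 and 6.32, then 6.29 and 6.43. Its stage 2 and stage 3 arrays overlapped, and 8.44% was regained. Trehalose-phosphate synthase Cit.31285.1.S1_at, of the enzyme family that makes the sugar signal trehalose 6-phosphate, read 8.98 and 9.01, then 6.62 and 6.73, then 7.91 and 7.96. Of 17 other probe sets with trehalose names, 3 were lower and 4 higher at stage 2, and 2 were lower and 12 higher at stage 3.

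Hormone, receptor and hydrolase genes regained the least, with 6 of 9 probe sets under 50%. Cit.16807.1.S1_at, like GID1B, the receptor of gibberellin, read 9.45 and 9.45, then 7.0001 and 7.05, then 8.44 and 8.45. It regained 58.5% of a fall of -2.42 ± 0.03. LURP-one-related Cit.36076.1.S1_at, of a family named for an Arabidopsis gene of resistance to a downy mildew, read 8.95 and 8.96, then 5.94 and 5.85, then 7.09 and 7.18. It regained 40.4% of a fall of -3.06 ± 0.05. Methyl esterase Cit.4444.1.S1_at, of the family that releases salicylic acid or other hormones from their methyl esters, read 6.58 and 6.81, then 4.64 and 4.59, then 4.599 and 4.84. Its stage 2 and stage 3 arrays overlapped, with 4.86% regained. The lipase class probe sets of cluster Cit.26572 were the opposite case. Cit.26572.1.S1_at read 8.09 and 8.12, then 5.46 and 5.46, then 8.24 and 8.32, and Cit.26572.1.S1_s_at read 7.25 and 7.20, then 5.10 and 5.10, then 7.31 and 7.35. Both ended above stage 1, by 0.18 and 0.11.

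The remaining 4 of this group stayed well below stage 1. They were the RsbQ-like hydrolase Cit.30028.1.S1_s_at with 15.04% regained, the receptor-like protein Cit.6332.1.S1_at with 17.1%, the ROTUNDIFOLIA-like Cit.5493.1.S1_s_at with 25.2% and the cysteine-rich receptor-like kinase Cit.6231.1.S1_s_at with 37.9%. ROTUNDIFOLIA-like peptides limit the length of leaves in Arabidopsis.

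The deepest fall of all belonged to a probe set for an uncharacterized protein. Cit.5438.1.S1_at read 9.65 and 9.68, then 4.85 and 4.91, then 8.40 and 8.45, a 27.5-fold lower signal at stage 2 with 74.1% of the log2 fall regained. A fiber protein of unknown role, Cit.6482.1.S1_at, read 8.17 and 8.06, then 4.58 and 4.30, then 7.26 and 7.08. Its fall of -3.67 ± 0.12 had one of the larger errors, and 74.3% was regained. Dynein light chain Cit.4205.1.S1_at, a subunit of microtubule motors in animals, read 6.65 and 6.83, then 4.56 and 4.92, then 6.81 and 7.17. Its stage 3 arrays overlapped those of stage 1. The ribosomal protein S24 probe set Cit.3036.1.S1_s_at changed by -2.40 ± 0.02 and -0.96. Among uninformative names, Cit.18168.1.S1_at was the one that ended farthest above stage 1, with 7.63 and 7.73, then 5.30 and 5.62, then 8.28 and 8.28. The 11 probe sets of other or uninformative name, these included, regained 24.8% to 127%. The 7 probe sets without a protein match changed by -3.31 to -2.08 at stage 2 and regained 35.4% to 94.8%.

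**Figure D4:**
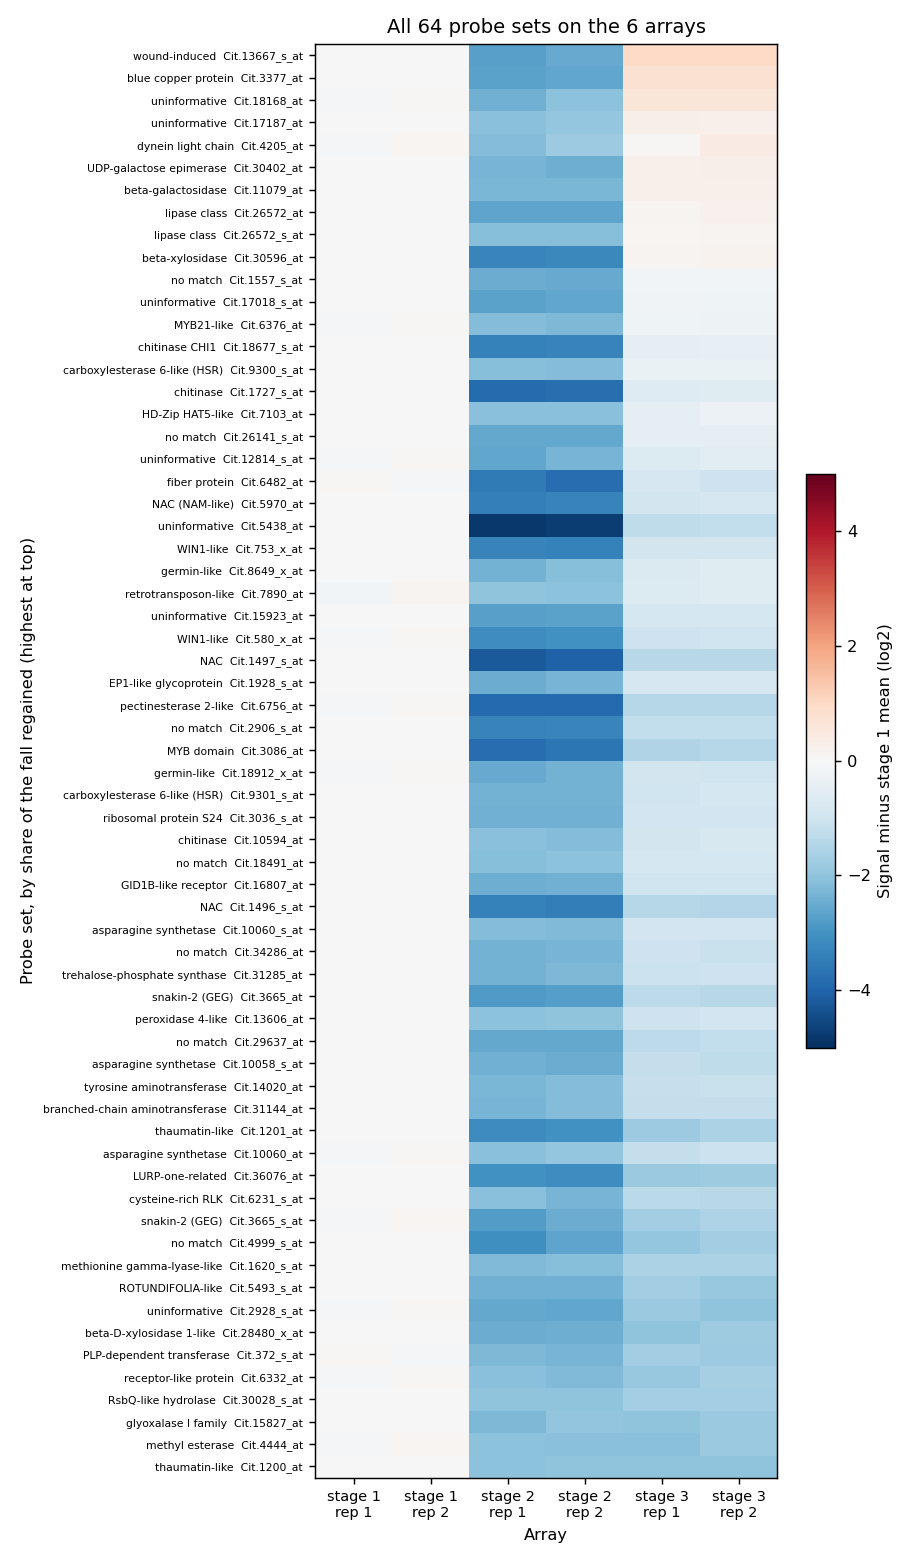
Signal of the 64 probe sets (rows) on each of the 6 arrays (columns), as the log2 difference from the stage 1 mean of the same probe set, in order of the share of the fall regained. Stage 2 is blue in every row, while stage 3 goes from above stage 1 in the top 10 rows, up to 0.99, to near the stage 2 signal at the bottom.

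Deep and shallow falls overlapped in the share regained. The 15 probe sets that fell 8-fold or more regained 40.4% to 105%, with a median of 67.2%, and the other 49 regained 1.02% to 138%, with a median of 58.7%. Beside the 64, the 40 probe sets that stayed low had a median fall of -3.88, with -3.16 remaining at stage 3, and the 5 that overshot had -2.24 and then 2.04. These sets are separated by the rule itself, so that the differences describe the bounds.

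Some features were not used by the rule. Of the 64, 7 (10.9%) had no protein match in the array's text, against 21.7% of all citrus probe sets and 12.5% of those that stayed low. Identifiers ending in _s_at, which mark probes shared by related transcripts, made up 25 (39.1%), against 23.6% of all and 55.0% of those that stayed low. The median number of expressed sequence tags behind a cluster was 5 where given, against 3 for all and 4 for those that stayed low. A probe set needs a signal that can fall by 2 log2 units, and the lowest stage 1 mean of the 64 was 6.38. Probe sets with a higher signal can more often meet the rule, and whether these features follow from that was not tested.

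Other probe sets that shared a cluster number or a best protein match with the 64 were not chosen by the rule, apart from being outside its bounds. There were 54, of which 6 shared a cluster number. The rest shared only a protein match and may report related genes, so that they are no repeat measurement of the 64. At stage 2, 33 of them were lower, 6 higher and 15 not called against stage 1, with a median of -0.58. Lower calls thus made up 61.1%, against 21.5% of all citrus probe sets, and higher calls 6 of 54, against 20.2%. Leaving out each array in turn gave 31 to 32 lower and 2 to 5 higher calls, and centring each array gave 9 higher calls. Of the 6 higher calls, 2 were kept with each array left out, both of cluster Cit.14890, and 4 were lost without at least 1 array. At stage 3, 30 were lower, 13 higher and 11 not called against stage 1, where 35.9% of all were lower. Against stage 2, 28 were higher at stage 3, 10 lower and 16 not called, and in that comparison 29.1% of all citrus probe sets were higher and 36.5% lower. Of these 54, 8 fell by the bound and stayed low. Without these 8, 25 of 46 were lower and 6 higher at stage 2. Probe sets of 1 match can bind the same transcripts, so that they are not separate observations.

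**Figure D5:**
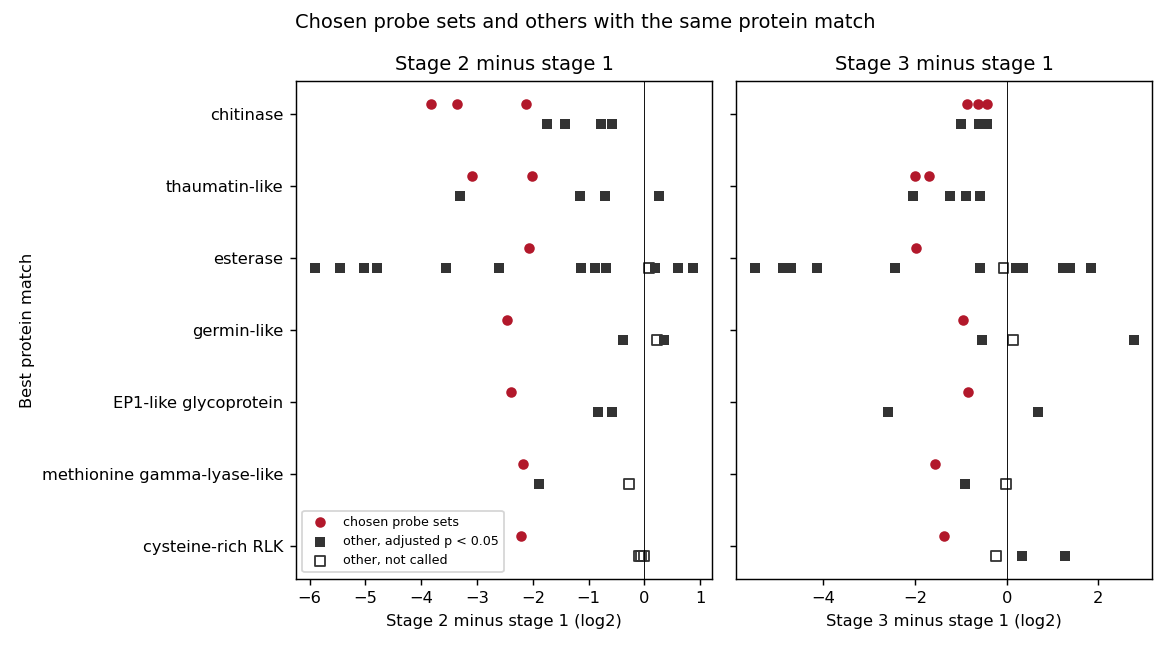
Log2 difference from stage 1 at stage 2 (left) and stage 3 (right) for 7 protein matches (rows); red points are probe sets of the 64, filled squares other probe sets with an adjusted p under 0.05 (limma) and open squares those not called. All 4 other chitinase probe sets are lower at both stages, while the 13 other esterase probe sets range from -5.90 to 0.88 at stage 2.

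The matches differed in how far their other probe sets went along. All 4 others with the match of the chitinases were lower at stage 2, from -1.74 to -0.57, and lower at stage 3. Of them Cit.15242.1.S1_at moved most, with -1.74 ± 0.06 at stage 2 (limma, adjusted p = 0.00017) and -0.61 at stage 3. Of the 4 others with the thaumatin-like match, 3 were lower and 1 higher at stage 2, and all 4 were lower at stage 3. The higher one, Cit.22710.1.S1_at with 0.27 ± 0.05, missed the threshold without any 1 of the arrays of stages 1 and 2 (limma, adjusted p of 0.054 to 0.077). Cit.1200.1.S1_s_at, of the same cluster as the chosen probe set nearest to the lower bound, changed by -3.30 ± 0.03 and -2.05, which put it just among those that stayed low. Yet it rose by 1.25 from stage 2 to stage 3, while the chosen Cit.1200.1.S1_at rose by 0.02.

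The match of the methyl esterase had the widest range, with 9 of 13 other probe sets lower and 3 higher at stage 2. Of these, 6 fell by the bound and stayed low, with -5.90 to -2.60 at stage 2 beside -2.07 for the methyl esterase. Without this match, 24 of 41 other probe sets were lower and 3 higher at stage 2. Peroxidase Cit.30798.1.S1_at, with the match of the chosen peroxidase, changed by -1.90 ± 0.04 (limma, adjusted p = 6e-05) and -0.96. Wound-induced Cit.13668.1.S1_at changed by -1.23 ± 0.08 (limma, adjusted p = 0.0007) and then 0.75, the order of stages seen in the wound-induced probe set above.

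Others with a shared match went separate ways. Germin-like Cit.8648.1.S1_at changed by 0.23 ± 0.07 at stage 2, which missed the threshold (limma, adjusted p = 0.055), and by 2.77 at stage 3. Pectinesterase Cit.1729.1.S1_s_at changed by -0.57 ± 0.03 at stage 2 and rose by 2.63 at stage 3 over stage 1 (limma). The 3 others with the match of the cysteine-rich kinase were not called at stage 2. Within cluster Cit.2906, which has no protein match, the chosen Cit.2906.1.S1_s_at changed by -3.31 ± 0.03, while Cit.2906.1.S1_at changed by 0.08 ± 0.12 (limma, adjusted p = 0.63). Of the 6 other probe sets that share a cluster number, that was the 1 not called, and the other 5 were lower at stage 2.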

How the data were processed

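The authors deposited 1 table of log2 signals for 6 arrays, computed with RMA (Expression Console); the methods mention Microarray Suite as well. A second deposited table holds log2 stage means, used here only to match rows, the array's gene text, and the authors' unadjusted p-values, ratios and fold changes, which were not used. Array names are shortened (median 7 letters), so homologue names came from the study's annotation. Of 30395 probe sets, 224 that are not citrus sequences were left out. The 2 probe sets that the rule leaves out by name did not meet its bounds.

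Stage contrasts were fitted with limma 3.58.1 (R 4.3.3; lmFit, eBayes, no covariates) on all 6 arrays, with Benjamini-Hochberg adjustment over 30171 probe sets and a threshold of 0.05. The fit was also run on simulated data with noise independent between arrays. That run does not cover the shared deviations of same-numbered arrays given below. The text gives array values for the 10 largest falls with an informative name, the 5 highest and 5 lowest values at stage 3, probe sets nearest a bound, members of lists or clusters with 2 or more, and further ones to complete groups. The members and lists were chosen with earlier results of these data known, and 12 lists by name beginnings after names and values were seen. Alternatives were centring, quantile normalization, other bounds, identifiers without _s, _x or _a, each replicate number alone, a replicate block and each array left out. Python 3.11.15, numpy 2.4.6, pandas 2.3.3 and matplotlib 3.10.9 were used. The number of arrays limits the precision.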

Additional observations from a re-analysis of the deposited data

How the results depend on the processing

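The number of probe sets that met the rule was 57 to 67 when each array was left out, 57 after centring each array on its median and 61 after quantile normalization. Bounds of 1.5 and 2.5 log2 units on the fall gave 107 and 26, identifiers without _s, _x or _a gave 34, and 53 met the rule on every pairing of arrays, an alternative added after the data were seen. The median share regained was 60.4% after centring, 60.7% after quantile normalization, 62.2% on the replicate 1 arrays alone, 62.1% on the replicate 2 arrays alone and 60.4% to 62.4% when an array was left out. Calls between stages 1 and 2 numbered 12573, and 8527 to 11423 when an array was left out. Centring turned their balance, from 6493 lower and 6080 higher to 4626 and 7145. Name beginnings, chosen after the data were seen, gave 98 lower calls of 341, against 284 of 1408 by the first lists. The share of lower calls was thus larger by the later lists and depends on how the lists are drawn. With a replicate block there were 15105 calls between stages 1 and 2. Same-numbered arrays deviated together (correlations of 0.46 to 0.56 across probe sets), but the labels do not say that a number marks a shared source. Germin-like Cit.8648.1.S1_at passed the threshold at stage 2 after centring, with the block and without replicate 1 of stage 2 (adjusted p of 0.016, 0.044 and 0.021). No called value changed sign, while 8 of the 54 other probe sets, none (0) of them called, did so at stage 2 under some alternative. How signals near the random-sequence and reporter controls affect the size of falls was not tested, and 45 of the 64 had a stage 1 signal above the random-control median.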
